A study of Caenorhabditis elegans with 2 samples.

Results

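The ceh genes are the Caenorhabditis elegans homeobox genes named by the prefix ceh, for C. elegans homeobox. All protein-coding genes of the WBcel235 annotation with a name in that series were taken, apart from the Hox gene ceh-13, which gave 62 genes of 19973 on chromosomes I to V and X. For each gene, a region counted when its summit lay between 5000 bp upstream of the gene start and the gene end. These windows had a median length of 7735 bp (range 5515 to 26503 bp), against 7027 bp for all protein-coding genes.

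Binding of the transcription factor ZAG-1 was mapped by ChIP-seq, in which DNA bound by a tagged protein is pulled down and sequenced. The material was whole L4 larvae, the last larval stage before the adult, of mixed sex. The worms were of strain OP83, which carries the unc-119(ed3) allele on III and the insertion wgIs83 with an eGFP-tagged zag-1, so the tagged protein came from a transgene and its level relative to the native protein is not given in the sources used here. There was 1 group with 2 biological replicates and the labels name no second genotype or treatment, so no comparison between groups was possible and none of the values below carries a p-value. The ce11 lists held 246 peaks that passed the authors' irreproducible discovery rate analysis (IDR), 4010 regions for the pooled replicates, 11750 for replicate 1 and 30000 for replicate 2. The pooled list and both replicate lists are labelled as peaks together with background, so a listed region is not necessarily a bound site, and their read depth is unknown because the files hold no counts.

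Homeobox genes encode transcription factors that bind DNA through a homeodomain, and in C. elegans they specify much of neuron identity, often in combinations that differ between neuron classes. The ceh genes spread over several homeodomain classes, among them ONECUT, POU, sine oculis-type, LIM, Pbx-related (PBC), Paired-like and Antennapedia-like (ANTP) genes. ZAG-1 itself belongs to the ZEB group, whose members carry zinc fingers as well as a homeodomain, and it is required for normal neuron differentiation and axon development. Since whole worms were used, the lists do not say in which cells a region was occupied.

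In the full replicate lists, the ceh genes as a group carried about as many regions as other genes did. Their share was lower in the pooled list. An IDR peak lay in the window of 2 of 62 ceh genes (3.23%), ceh-5 and ceh-38, against 2.21% of all protein-coding genes. A pooled region was found at 10 ceh genes (16.1%) against 25.2% of all genes, a replicate 1 region at 35 (56.5%) against 57.2%, and a replicate 2 region at 57 (91.9%) against 86.3%. Regions of replicates 1 and 2 that overlapped by at least 1 bp, with both summits in the window, were present at 15 ceh genes (24.2%) against 25% of all genes. The lower share in the pooled list was not seen when the 4010 strongest regions of 1 replicate took its place, at 16 genes (25.8%) with replicate 2 and 15 (24.2%) with replicate 1, against 26.2% of all genes with either. Per 10 kb of window, the median ceh gene had 1.06 replicate 1 regions and 2.65 replicate 2 regions, against 1.09 and 2.82 for all genes.

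**Figure D1:**
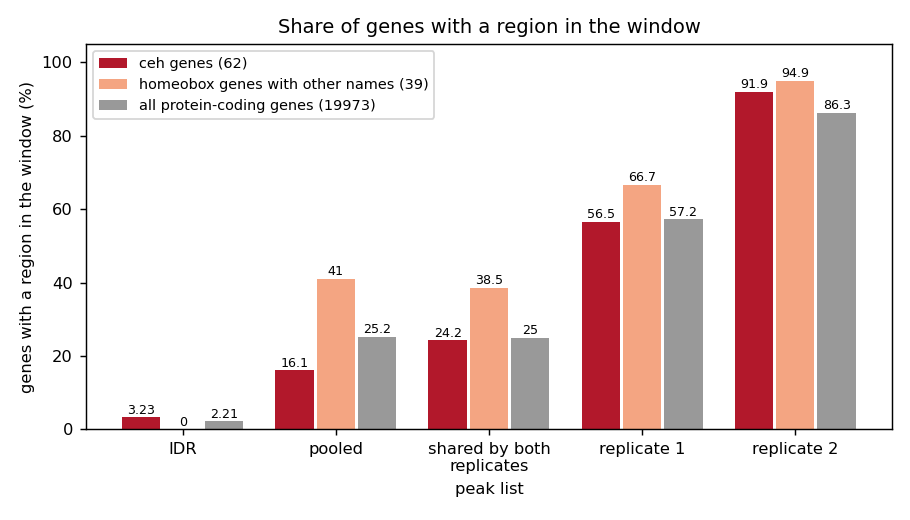
Bars give the percentage of genes with at least 1 region summit in the window (y axis) for each peak list (x axis), in 62 ceh genes, 39 other homeobox genes and 19973 protein-coding genes. The 39, labelled as homeobox genes with other names, include ceh-13 and zag-1. The ceh bars stand close to those of all genes in replicate 1 (56.5% and 57.2%) and for shared regions (24.2% and 25%), and are lower in the pooled list (16.1% and 25.2%).

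A list of 39 other homeobox genes, such as unc-86, mec-3 and lin-39, was set beside them. It included the Hox gene ceh-13, left out of the ceh set. It also included zag-1, the gene of the tagged protein, at which a region may not mean binding. There 0 genes had an IDR peak, 16 (41%) a pooled region, 26 (66.7%) a replicate 1 region and 37 (94.9%) a replicate 2 region, and 15 (38.5%) had a shared region. Windows of those genes were longer, with a median of 9858 bp, and in summits per 10 kb over all their windows the ceh genes had 0.228 pooled and 1.16 replicate 1 regions against 0.438 and 1.15 for the other homeobox genes and 0.407 and 1.2 for all genes. Neither difference was tested, since genes of a family are not replicates of a condition.

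ceh-38 was the ceh gene with an IDR peak at its own start. It encodes a ONECUT homeodomain protein, which in worms acts with ceh-48 and other CUT-domain genes in the expression of pan-neuronal genes. The gene (WBGene00000459) lies at II:6951526-6955409 on the plus strand and the peak at II:6951402-6951741, with its summit 46 bp into the gene, in the annotated 5' UTR. The start of malt-1, a paracaspase gene that runs the other way, was 226 bp from that of ceh-38, and the summit lay in the window of malt-1 too. In the IDR list its signal value, a score of the authors' peak caller, was 48.1, within a list that ran from 45.4 to 296 with a median of 56.0, and 41 of the 246 peaks were lower. In replicate 1 the region had a signal of 23.7 and ranked 618, in the strongest 5.26% of that list, and in replicate 2 it had a signal of 19.9 and ranked 322, in the strongest 1.07%. The replicate summits were 24 bp apart. The ceh-38 window held 3 further replicate 2 regions upstream, ranked 7124 to 17685, and none of them overlapped a replicate 1 region. All 3 were nearest to the start of malt-1 and lay inside malt-1 or flcn-1.

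The sequence of this peak is shown because it is the only IDR peak nearest to a ceh start. It is given 5′ to 3′ on the plus strand of the RefSeq WBcel235 genome, first the part of the peak before the gene start, at II:6951402-6951525, then 30 bases around a word within the 5' UTR, at II:6951615-6951644. Capitals mark 4 words searched on both strands within 100 bp of a summit, the ZEB-type word CAGGTA or CAGGTG, then GAGAGA, also CGTCTC and also ACGCAG, or their reverse complements; here GAGACG, the reverse complement of CGTCTC, was the only match.
ceh-38 before the start: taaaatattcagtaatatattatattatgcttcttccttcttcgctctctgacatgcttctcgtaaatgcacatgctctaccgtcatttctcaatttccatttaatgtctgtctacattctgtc
ceh-38 in the 5' UTR: agcaaacgactaGAGACGgacaaacaacgc

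Among the ONECUT genes, 4 of 6 had a pooled region in the window (66.7% against 25.2% of all protein-coding genes), 5 had a replicate 1 region (83.3% against 57.2%) and all 6 a replicate 2 region (100% against 86.3%). These 4 genes, ceh-21, ceh-38, ceh-39 and ceh-48, hold 3 distinct regions, since ceh-21 and ceh-39 lie next to each other on X and share 1. The class was chosen because it holds ceh-38, and the pooled region of ceh-38 is its IDR peak, so that gene was bound to count. The class that holds ceh-5, the ANTP genes other than the Nkx and BarH types, had 1 of 13 genes with a pooled region (7.69%). There 5 had a replicate 1 region (38.5%) and all 13 a replicate 2 region (100%). The ONECUT class is small and was tested against nothing.

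ceh-48, the ONECUT gene that acts with ceh-38 on pan-neuronal genes (WBGene00015934, IV:6812108-6815607, plus strand), had a pooled region 2265 bp upstream of its start at IV:6809673-6810012, with a signal of 25.8 and rank 2163 of 4010. In replicate 2 the overlapping region ranked 436, in the strongest 1.45%, with a signal of 18.4, whereas in replicate 1 it ranked 2643, in the strongest 22.5%, with a signal of 17.6. The 2 summits were 118 bp apart, and no other protein-coding window included the pooled summit. ceh-39, an X-linked gene known as an X signal element that represses the sex-determination switch gene xol-1 (WBGene00000460, X:1853874-1856172, minus strand), had a pooled region at X:1856128-1856467 with its summit 126 bp upstream of the start, a signal of 26.4 and rank 1887. Here replicate 1 gave the higher place, rank 1179 or the strongest 10.03%, against rank 20695 or 69.0% in replicate 2. The better-placed replicate was thus replicate 2 at ceh-48 and replicate 1 at ceh-39. For ceh-21, the same region was 3562 bp upstream, with ceh-39 in between. Its neighbour ceh-41 had replicate 2 regions alone, the better ranked 14537, and ceh-49 on V had 1 region in each replicate, ranked 8914 and 3327, which did not overlap.

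The 201 bases around the pooled summits of ceh-48 (IV:6809743-6809943) and ceh-39 (X:1856198-1856398) are given below on the plus strand, marked in the same way, to set the other ONECUT regions beside that of ceh-38. The ceh-48 region held GAGAGA 2 times, as well as CGTCTC and the reverse complement of ACGCAG, the last 2 overlapping by 1 base. The ceh-39 region held 0 of the 4 words, although its G and C content was higher, at 51.7% against 48.8% at ceh-48.
ceh-48: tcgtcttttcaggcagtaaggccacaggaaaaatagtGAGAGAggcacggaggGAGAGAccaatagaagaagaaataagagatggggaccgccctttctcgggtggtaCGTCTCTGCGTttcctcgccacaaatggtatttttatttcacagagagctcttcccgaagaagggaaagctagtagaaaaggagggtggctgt
ceh-39: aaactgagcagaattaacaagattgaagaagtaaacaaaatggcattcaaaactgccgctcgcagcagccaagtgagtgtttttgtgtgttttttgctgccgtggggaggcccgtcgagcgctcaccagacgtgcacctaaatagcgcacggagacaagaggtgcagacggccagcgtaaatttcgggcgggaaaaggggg

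**Figure D2:**
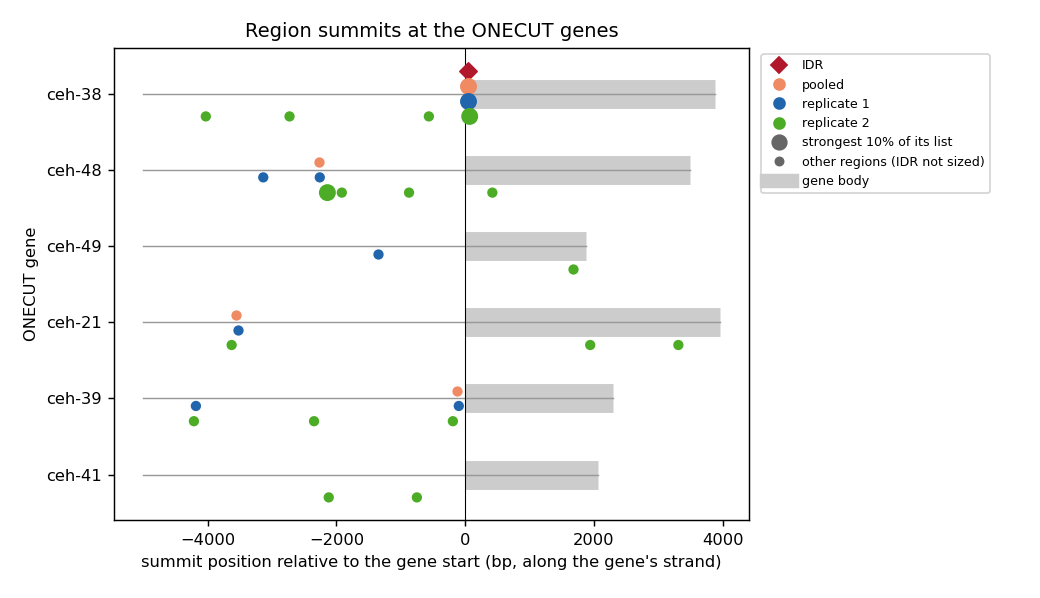
Points are region summits at the 6 ONECUT genes (y axis) by distance from the gene start in bp along the strand of the gene (x axis), coloured by list; large points are in the strongest 10% of the pooled or replicate list, small points are not, and grey bars are gene bodies. All 4 lists place a summit within 70 bp of the ceh-38 start, and at ceh-48 the large point is from replicate 2, 2140 bp upstream.

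Words at the summits of the ceh regions were counted over distinct regions. CAGGTA or CAGGTG was within 100 bp of 0 of 2 IDR summits, 1 of 11 pooled summits (9.09%, against 8.73% of all pooled regions), 9 of 60 replicate 1 summits (15% against 10.2%) and 18 of 138 replicate 2 summits (13% against 9.09%). The pooled region with the word was 4356 bp upstream of ceh-99 and ranked 3583 of 4010. CGTCTC was near both IDR summits, as it was near 42.3% of all IDR summits, and near 4 of 11 pooled summits (36.4% against 12.2%), of which 2 were at ceh-5 and the others at ceh-38 and ceh-48. In the replicate lists its share was 8.33% against 8.34% in replicate 1 and 7.25% against 6.17% in replicate 2. GAGAGA was near 27.3% of pooled ceh summits against 20.4% of the list, and ACGCAG near 27.3% against 10.5%. Both came from ceh-5 and ceh-48 alone. In the replicate lists GAGAGA was near 11.7% against 14.9% in replicate 1 and 9.42% against 11.7% in replicate 2. ACGCAG was near 6.67% against 6.66% in replicate 1 and 7.97% against 4.64% in replicate 2. The 11 pooled regions include both IDR peaks. CGTCTC and ACGCAG were added to the words first planned, with results of these data known. They were near 42.3% and 33.7% of all IDR summits, so their pooled shares here are no independent support. With 11 pooled regions, 1 region is worth 9.09 percentage points.

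The other IDR peak in a ceh window was not nearest to a ceh gene. ceh-5, an ANTP-type homeobox gene (WBGene00000430, I:9727169-9728034, plus strand), had its IDR peak at I:9722163-9722502, 4836 bp upstream of the start. That summit was 383 bp upstream of eat-16, which encodes a regulator of G protein signalling, and inside ocrl-1, an inositol polyphosphate phosphatase gene that runs the other way. It had an IDR signal of 61.2 and ranked 103 of 246, and it was strong in both replicates, with rank 151 (signal 34.3, strongest 1.29%) in replicate 1 and rank 84 (signal 27.4, strongest 0.280%) in replicate 2. A separate pooled region, outside the IDR set, had its summit 1705 bp upstream of ceh-5, for which ceh-5 was the nearest start, inside eat-16 and ocrl-1. It ranked 417 in the pooled list, 562 in replicate 1 (strongest 4.78%) and 907 in replicate 2 (3.02%), and its replicate summits were 1 bp apart. No other ceh gene beside ceh-5 and ceh-38 had regions among the strongest 10% of both replicates.

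The 8 pooled regions outside ceh-5 and ceh-38 were weak. The authors' −log10 q, where higher values are more significant and a q-value of 1 gives 0, lay between 0.0204 and 0.0986 for them, against 2.39 and 0.952 for the pooled regions at ceh-5 and 1.77 at ceh-38. ceh-17, the Phox2-related gene of the ALA and SIA neurons, had pooled regions 470 and 1120 bp upstream of its start, ranked 3763 and 3514 of 4010. In replicate 1 a region 1124 bp upstream was in the strongest 5.23% (rank 614, signal 23.7), while no replicate 2 region overlapped it and the best replicate 2 region at ceh-17 ranked 14357. ceh-18, a POU gene that acts in the gonadal sheath cells, had a pooled region in an intron 3946 bp into the gene, ranked 3246, and 8 replicate 2 regions beside 4 in replicate 1. Its window was long, at 19431 bp, and held 4.12 replicate 2 regions per 10 kb, against 10.2 at ceh-5. ceh-27, an Nkx-type gene, had a pooled region 518 bp upstream, ranked 3858. At ceh-8, a Rax-related gene, the pooled region lay in the 3' UTR, 678 bp upstream of the collagen gene col-63, which was the nearest start. Its place differed widely between replicates, with rank 10401 in replicate 1 (strongest 88.5%) and rank 329 in replicate 2 (1.10%).

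**Figure D3:**
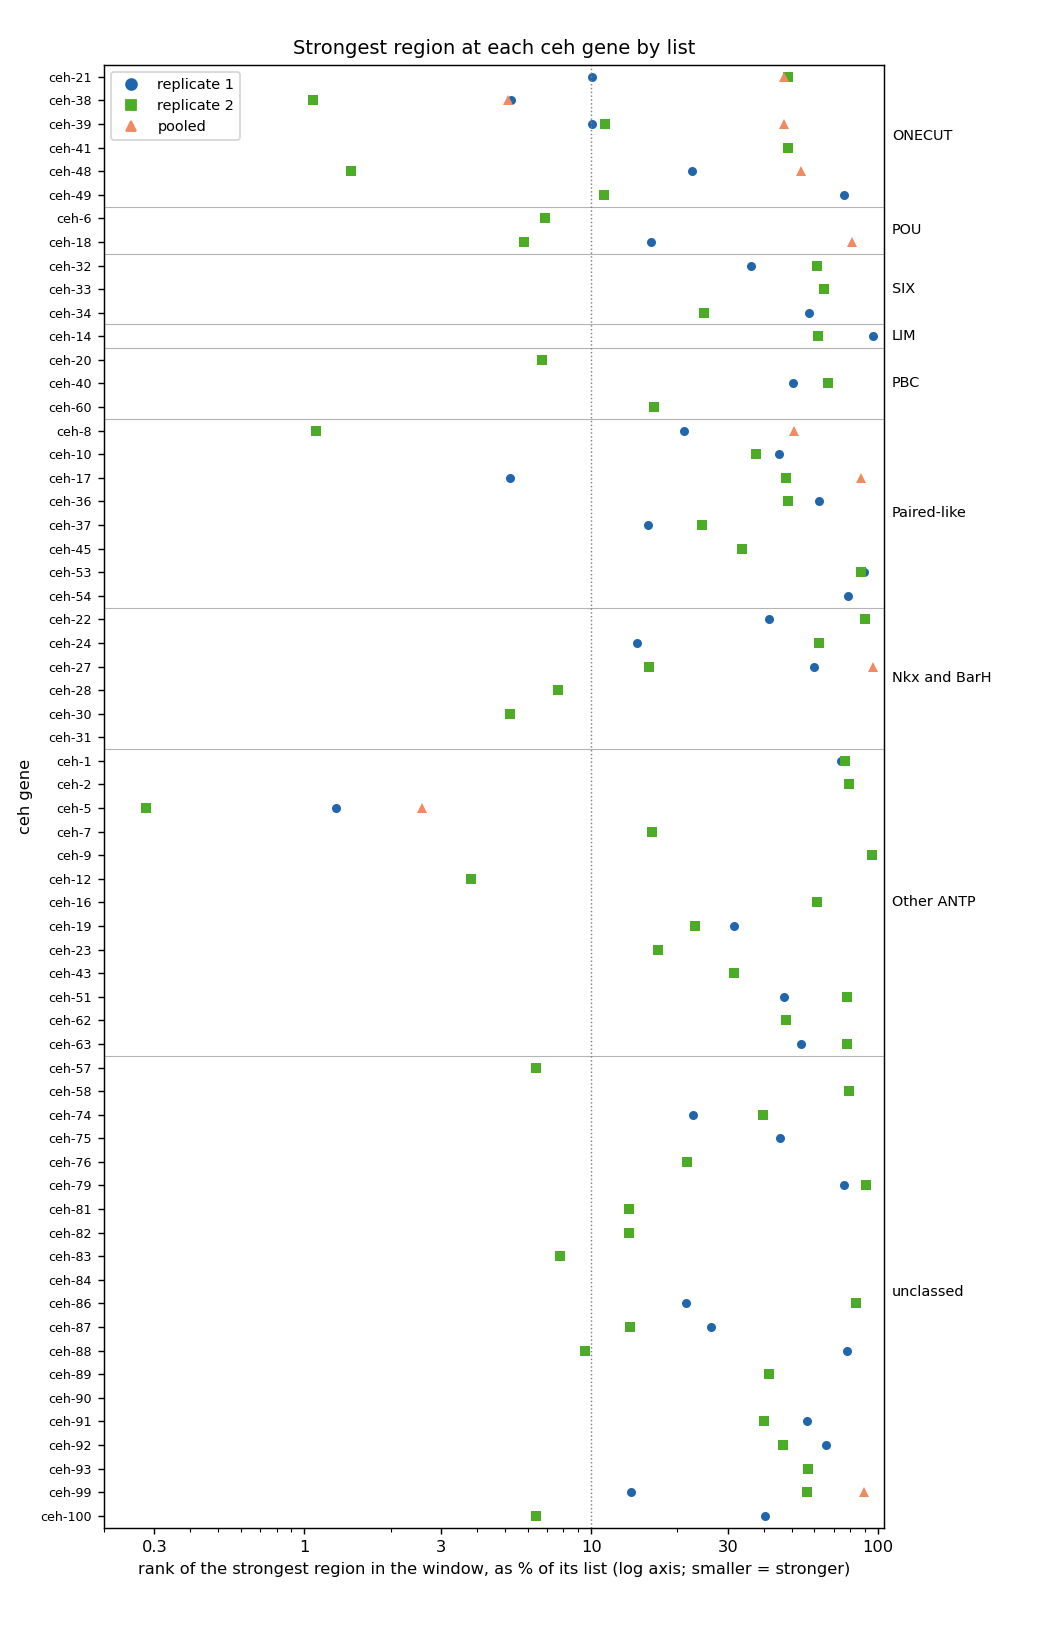
For each of the 62 ceh genes (y axis, by homeodomain class) a point gives the rank of the strongest region in its window as a percentage of that list (x axis, log scale, smaller is stronger), for replicate 1 (circles), replicate 2 (squares) and the pooled list (triangles); genes without a point in a list have no region there. ceh-5 and ceh-38 have points of all 3 lists left of the dotted line at 10%, and ceh-31, ceh-84 and ceh-90 have no points.

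Several ceh genes known for their part in neuron identity are given next with their values. ceh-10, a Chx10-related gene needed for the AIY interneuron, had 2 regions in each replicate, the best ranked 5300 in replicate 1 and 11261 in replicate 2. ceh-14, a LIM gene of thermosensory neurons, had 1 in each, ranked 11290 and 18542. The Otx-type genes ceh-36 (ASE and AWC neurons) and ceh-37 (AWB neurons) had their best regions at ranks 7345 and 1854 in replicate 1 and 14550 and 7276 in replicate 2. ceh-34, a sine oculis-type gene of pharyngeal neurons, reached rank 6752 in replicate 1 and 7410 in replicate 2, and ceh-43, a Distal-less gene of dopaminergic neurons, had 1 replicate 2 region at rank 9408 and none in replicate 1. ceh-36 had a shared region 4828 bp upstream, ranked 7345 in replicate 1 and 16024 in replicate 2.

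Genes of pharyngeal muscle and neurons follow. ceh-22, the Nkx2-5 homologue of pharyngeal muscle, had 1 region in each replicate, ranked 4917 and 27020, which did not overlap. ceh-19, of the MC neurons, had a shared region in the gene, ranked 3701 in replicate 1 and 16234 in replicate 2. ceh-28, of the M4 neuron, and ceh-2 had replicate 2 regions alone, the best at ranks 2291 and 23798. All regions in the ceh-28 window were nearest to the start of cpx-2, and the one at rank 2291 lay inside cpx-2. Of the PBC genes, which encode Pbx-type partners of Hox proteins, ceh-20 and ceh-60 had replicate 2 regions alone, at best ranks 2023 and 4970, and ceh-40 had regions in both replicates, with a best rank of 5940 in replicate 1 and 20015 in replicate 2, none of them shared. The ceh-20 region at rank 2023 was nearest to the start of F31E3.6.

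Few ceh genes had a region in the strongest 10% of the replicate 1 list and more in that of the longer replicate 2 list. Replicate 1 gave 3 ceh genes (4.84%), ceh-5, ceh-17 and ceh-38, against 8.98% of all protein-coding genes. Replicate 2 gave 14 (22.6%) against 20.6%, among them ceh-6, a POU gene of the excretory cell, ceh-12, an Mnx-type gene of VB motor neurons, ceh-30, a BarH-type gene that keeps the male CEM neurons alive, and ceh-20. For 5 of these 14 genes (ceh-5, ceh-18, ceh-38, ceh-48 and ceh-57) such a region had the ceh start as its nearest start; at ceh-12 it was 301 bp upstream of twk-47 and at ceh-30 it was 959 bp upstream of rsef-1.

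The 62 genes were sorted by which of the replicate lists had a region in the window. In 33 genes (53.2%) both replicates had a region, against 52.3% of all protein-coding genes, in 24 (38.7% against 34%) replicate 2 alone, in 2, ceh-54 and ceh-75, replicate 1 alone (3.23% against 4.94%), and in 3 neither (4.84% against 8.77%). The 3 were ceh-31, a BarH-type neighbour of ceh-30 on X, ceh-84 on II and ceh-90 on X, and these had no row in the IDR or pooled list either. Of the 33 genes with regions in both replicates, 18 had no pair that overlapped, which is 29% of the ceh genes against 27.3% of all protein-coding genes with regions in both lists but no such pair; among them were ceh-10, ceh-14, ceh-17, ceh-27, ceh-34, ceh-37 and ceh-49. Across the 62 genes, regions per bp of window in replicates 1 and 2 correlated weakly (Spearman 0.155, Pearson 0.298), against 0.225 and 0.261 over 19973 genes; the points share their window lengths, neighbouring windows overlap, and genes are not independent replicates.

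After ceh-5, ceh-38 and ceh-48, the shared regions at ceh genes were of middle or low rank in at least 1 replicate. Ordered by the worse of the replicate ranks, the next were at ceh-18 (23.8% in replicate 1 and 46.5% in replicate 2, in the 3' UTR), ceh-19 (31.5% and 54.1%), ceh-36 (62.5% and 53.4%), ceh-24, an Nkx-type gene (14.6% and 65.2%), ceh-74 (22.6% and 67.6%), ceh-99 (67.9% and 65.8%) and the region of ceh-39 and ceh-21 (10.03% and 69.0%). Several of these were nearest to the start of another gene: ttr-48 at ceh-18, swan-1 at ceh-24, cest-2.2 at ceh-74 and srx-118 at ceh-99. Those at ceh-19 and ceh-36 were nearest to their own gene, and that of ceh-39 and ceh-21 to ceh-39. The shared regions numbered 20 over the 15 genes, with that of ceh-39 and ceh-21 counted once, and ceh-5 had 3 of them. Counted in replicate 1 alone, ceh-8 and ceh-18 had the most regions, 4 each, followed by ceh-5, ceh-24, ceh-37, ceh-92 and ceh-99 with 3 each.

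By place, summits at ceh genes lay mostly upstream, as the windows themselves did. Upstream sequence made up 11.8% of the ceh windows within 1000 bp of the start and 47% beyond it. In replicate 1, 9 summits (14.8%) lay in the nearer and 30 (49.2%) in the farther part, and in replicate 2, 24 (16.4%) and 66 (45.2%). Introns had 0.754 replicate 1 summits per 10 kb at ceh genes against 1.15 at all genes, and 2.64 replicate 2 summits against 3.19. Coding exons had 1.13 against 1.11 in replicate 1 and 1.62 against 2.31 in replicate 2. In annotated 3' UTRs, replicate 2 had 10 ceh summits, 6.15 per 10 kb against 3.91 over all genes. Those at ceh-19, ceh-27 and ceh-32 were nearest to the start of their own gene, and the others to another start. Replicate 1 had 2 summits in 3' UTRs, 1.23 per 10 kb against 1.4. In annotated 5' UTRs, replicate 1 had 3 ceh summits, 5.07 per 10 kb against 1.53, and replicate 2 had 1, 1.69 against 3.17. These densities rest on few summits, and none was tested.

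**Figure D4:**
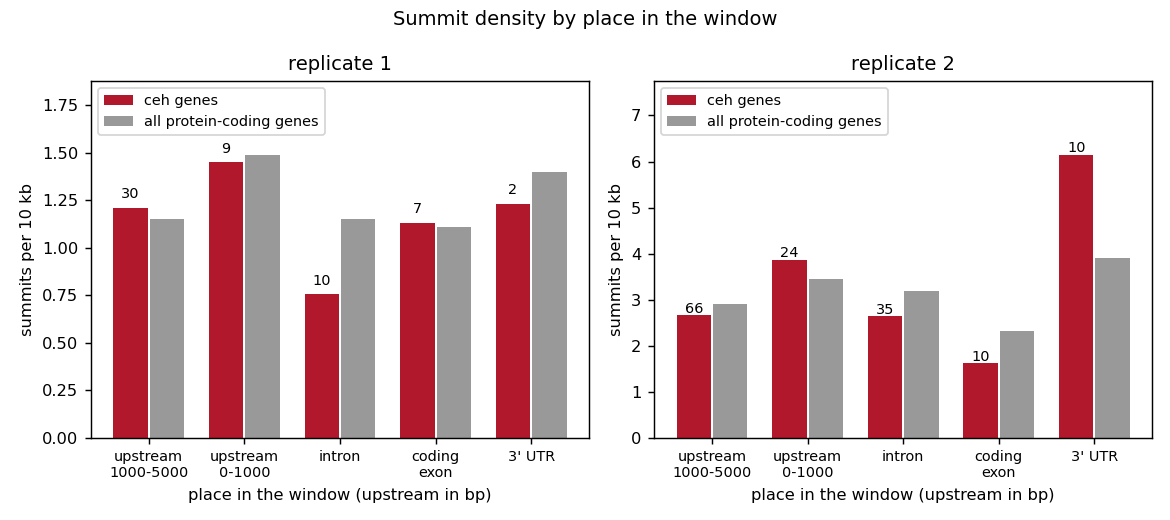
Bars give region summits per 10 kb of window sequence (y axis) by place in the window (x axis) for ceh genes and for all protein-coding genes, in replicate 1 (left) and replicate 2 (right, another scale); numbers above the ceh bars are counts of summits. Intron bars are lower at ceh genes in replicate 1 (0.754 and 1.15) and replicate 2 (2.64 and 3.19), whereas the 3' UTR bars go in opposite directions. Annotated 5' UTRs are not drawn.

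The ceh starts were farther from other protein-coding starts than usual, with a median of 3379 bp to the nearest one against 2136 bp for all genes. Of the ceh window sequence, 60.5% was nearer to the start of its own gene than to another start, against 49.2% over all genes. Of the summits in the windows, 38 of 61 in replicate 1 (62.3% against 49%) and 78 of 146 in replicate 2 (53.4% against 49.8%) were nearest to their own gene. The replicate 1 share was near the 60.5% of the ceh window sequence, and the replicate 2 share was below it. Counting only such summits, 29 ceh genes (46.8%) had a replicate 1 region against 34.1% of all genes, and 47 (75.8%) a replicate 2 region against 61%, while a pooled region was at 7 (11.3%) against 13.7%. With this assignment the ceh share was thus above that of all genes in both replicate lists and below it in the pooled list; the part of the wider spacing in this was not tested.

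On X lay 18 ceh genes, of which 3 had a pooled region (16.7% against 29.6% of all X genes), 10 a replicate 1 region (55.6% against 61.4%) and 15 a replicate 2 region (83.3% against 90%). The 44 autosomal ceh genes had 7 (15.9% against 24.5%), 25 (56.8% against 56.6%) and 42 (95.5% against 85.7%). Both genes with an IDR peak were autosomal. Of all genes, 3% on X and 2.09% on autosomes had one, so 18 ceh genes on X are too few to show a difference.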

How the data were processed

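The authors deposited ChIP-seq peak lists. Per the files' text listings, a replicate's list was derived from its own alignments plus 1 further file, the pooled list used the alignments of both, and the IDR list was derived from these 3 lists. The sources used here do not give the aligner, peak caller or IDR threshold, and the control experiment named in the labels was not used here. Each deposited list holds the authors' signal value in the unit of their caller and, by the layout of the format, the −log10 of a q-value; both were used only within a list. The ce10 lists were not used here.

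Regions were placed on WBcel235, which is ce11, with Ensembl 115 genes (positions 1-based); no region ended beyond a chromosome. A gene start is the annotated gene boundary, and the nearest start is that of any protein-coding gene. Where annotations overlap, coding exons took precedence over UTRs, and exons over introns. A rank percentage is the rank by signal over the list length. Shared regions overlap by at least 1 bp.

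The members, gene lists, words and windows were chosen with earlier results of these data known. Genes named were those with an IDR or pooled region, the 10 with the best shared regions, those with no region, the ONECUT genes and the 3 genes with most replicate 1 regions (ties included); others were named by role, or after their values were seen. Of the class lists, 1 name, ceh-44, was not analysed here. Window counting was tested on planted summits. Python 3.11.15, numpy 2.4.6, pandas 2.3.3 and matplotlib 3.10.9 were used.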

Additional observations from a re-analysis of the deposited data

How the results depend on the processing

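No paired analysis was possible because the design holds 1 group. In all, 12 of 37 alternative values were within 1.5 times the reported one. Most of the others come from narrower windows or shorter lists, in which fewer of all genes had a region too. With 1000 bp to either side of the start, 1 ceh gene had an IDR peak (ceh-38, 1.61% against 0.941% of all genes). There 4 had a pooled region (6.45% against 9.5% of all genes) and 15 a replicate 1 region (24.2% against 23.7%). A replicate 2 region was at 31 (50% against 49.5%) and a shared one at 5 (8.06% against 8.97%). The median of replicate 1 regions per 10 kb was 0, as it was over all genes. With 2000 bp upstream, 1 gene had an IDR peak (1.61% against 1.46% of all genes). The replicate 1 median was 0, again as over all genes. With the nearest start only, 1 gene had an IDR peak (ceh-38), and the medians were 0 in replicate 1 and 1.23 in replicate 2. With the stronger 50% of each list, 1 ceh gene had an IDR peak (ceh-5, 1.61% against 1.1% of all genes). There 4 had a pooled region (6.45% against 14.1% of all genes), 21 a replicate 1 region (33.9% against 35.4%) and 4 a shared one (6.45% against 10.7%). The medians were 0 in replicate 1 against 0 over all genes, and 1.23 in replicate 2 against 1.38. With the strongest 246 regions of 1 replicate in place of the IDR set, 1 gene was left in either case, ceh-5. That is 1.61%, against 1.95% of all genes without replicate 1 and 2.15% without replicate 2. In both cases ceh-38 was lost, and the range was 1 to 1. For the pooled list that range was 15 to 16, and the cause was not tested. With replicate 2 cut to as many regions as replicate 1, 30 ceh genes had a region (48.4% against 56.8%) and 6 a shared region (9.68% against 14.3%). The median of replicate 2 regions per 10 kb was then 0, against 1.08 over all genes. Shared regions were at 7 genes with summits within 100 bp (11.3% against 14.4%) and at 9 with an overlap of 50% (14.5% against 17.2%). In both of these settings ceh-5, ceh-21, ceh-24, ceh-36, ceh-38, ceh-39 and ceh-92 had one. No signal value has a replicate error, and depth is unknown.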
